A study of Mus musculus with 12 samples.

Results

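The genes described here are 10 that act on newly made collagen inside the endoplasmic reticulum (ER): the prolyl 4-hydroxylase subunits P4ha1, P4ha2 and P4ha3, the lysyl hydroxylases Plod1, Plod2 and Plod3, the prolyl 3-hydroxylases P3h1 and P3h2, the P3h1 partner Crtap, and Serpinh1, which encodes the collagen chaperone HSP47. They were chosen by symbol, and each of the 10 was paired with 1 Ensembl ID among the 57010 IDs of the count files. All 10 passed the expression filter, so none is missing from the comparisons. The study measured messenger RNA in cultured primary chondrocytes from mice; these cells make and maintain cartilage. The 12 libraries carry the genotype label "wild type" and fall by treatment into 4 labelled Control, 4 labelled WT and 4 labelled SIRT5F101L mutant. The treated cells were transfected with plasmids for wild-type or F101L-mutant SIRT5, a mitochondrial enzyme that removes malonyl, succinyl and glutaryl groups from lysines; the WT label is read here as the wild-type SIRT5 plasmid. The age and number of animals, the promoter of the plasmids and what Control cells received are not given in the sources used here. The libraries may therefore be separate cultures or repeat preparations, and p-values measure only the spread between them.

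Collagen chains are hydroxylated on proline and lysine as they enter the ER, in reactions that use oxygen, iron, 2-oxoglutarate and ascorbate. Prolyl 4-hydroxylation lets the triple helix stay folded at body temperature, and lysyl hydroxylation prepares the sites of cross-links and of sugar attachment. Prolyl 3-hydroxylation modifies a few positions, and the complex of P3h1, Crtap and the prolyl isomerase Ppib also helps the chains fold. HSP47 binds the folded triple helix and accompanies it to the Golgi. Loss of P3h1, Crtap or HSP47 function causes forms of osteogenesis imperfecta. P4ha1, P4ha2, Plod1 and Plod2 are also known as genes that the hypoxia-inducible factors (HIF) can switch on.

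Promoter sequences are shown for 3 of the genes because they make the HIF comparison below concrete: Serpinh1, which fell most, P4ha1, the hydroxylase that fell most, and P4ha2, a second prolyl 4-hydroxylase gene that changed less. Each runs 5' to 3' on the gene's strand, from 250 bases before to 50 bases after the start site, taken from RefSeq on build GRCm38.p6. Capitals mark the 5-letter core of the HIF recognition sequence, ACGTG or GCGTG, on either strand. Serpinh1 lies on the minus strand at chr7:99353190-99353489, P4ha1 on the plus strand at chr10:59323046-59323345, and P4ha2 on the plus strand at chr11:54100674-54100973.
Serpinh1: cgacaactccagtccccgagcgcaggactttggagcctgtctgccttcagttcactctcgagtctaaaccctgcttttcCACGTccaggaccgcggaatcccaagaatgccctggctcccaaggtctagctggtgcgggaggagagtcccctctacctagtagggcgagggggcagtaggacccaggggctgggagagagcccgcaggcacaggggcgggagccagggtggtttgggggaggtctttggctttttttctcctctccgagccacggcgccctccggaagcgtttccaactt
P4ha1: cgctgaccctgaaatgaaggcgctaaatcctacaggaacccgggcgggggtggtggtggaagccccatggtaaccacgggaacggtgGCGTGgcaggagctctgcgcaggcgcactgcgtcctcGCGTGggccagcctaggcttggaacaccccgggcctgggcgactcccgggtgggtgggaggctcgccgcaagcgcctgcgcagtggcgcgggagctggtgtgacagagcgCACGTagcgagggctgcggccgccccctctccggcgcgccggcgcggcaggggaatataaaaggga
P4ha2: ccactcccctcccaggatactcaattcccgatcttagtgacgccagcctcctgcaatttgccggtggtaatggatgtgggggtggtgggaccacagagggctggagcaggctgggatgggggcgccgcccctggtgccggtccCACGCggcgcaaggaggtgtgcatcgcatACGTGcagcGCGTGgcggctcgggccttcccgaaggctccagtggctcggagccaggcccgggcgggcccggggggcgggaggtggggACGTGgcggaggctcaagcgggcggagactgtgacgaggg
The Serpinh1 promoter holds 1 such match, the P4ha1 promoter 3 and the P4ha2 promoter 4. The table of promoters held 8 of the 10 genes, with 2 start sites for P3h1, and 7 of these 8 had at least 1 match: P4ha3 had 0, Plod1 and both P3h1 windows 2, Crtap 3 and Plod3 4. Plod2 and P3h2 are named only. Among all 32851 promoters of that length, 43.8% held at least 1 match, 19.6% held ACGTG, 32.4% held GCGTG, 8.93% had 3 or more of either and 3.86% had 4 or more. GC content was 53.3% to 70.3% in the windows of these genes, against a median of 52.7%, and its part in the number of matches was not tested. A match describes the letters only.

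Total counts were 15095357 to 24242139 per library, so that 1 count was worth 0.0413 to 0.0662 CPM (counts per 1000000 of a library's total) before scaling. No library was identical to another, and the libraries within a group differed by 2.56 to 8.92 times the sampling noise. The values of 8.19 to 8.92 are those of SIRT5F101L replicate 1 with the rest of its group. From WT replicate 4 that library differed by only 2.61, and pairs across the plasmid groups by 2.61 to 8.31. The targeted gene, Sirt5, had 9 to 16 counts in Control, 1 to 9 in WT and 9 to 19 in SIRT5F101L libraries, and a rise was not detected with either plasmid. Its log2 fold change was -0.86 in WT (95% interval -1.97 to 0.25) and 0.03 in SIRT5F101L (-0.98 to 1.05). These low counts do not decide whether the plasmids were expressed, because an insert unlike the mouse gene might not be counted. SIRT5F101L replicate 1 stood apart from the rest of its group on the second principal component of log2 CPM, at 20.3 against -23.5 to -17.0, beside the WT libraries at -1.07 to 20.1. Where it alone decides a call or an overlap described below, the values without it are given too. The 14 chondrocyte markers were all detected, from Col2a1 at 6719 CPM to Matn1 at 2.15 CPM in Control, and their summed level was 9340 to 11708 CPM in Control, 2855 to 2969 in WT and 2324 to 2569 in SIRT5F101L. Of the 14, 12 fell in each plasmid group, beside 28.1% of all genes in WT and 30.7% in SIRT5F101L, and Col2a1 and Comp make up most of the sum. Acan (133, 185 and 143 CPM) rose in WT and Hapln1 (82.2, 97.8 and 93.1 CPM) rose in both. Col1a1, a marker of fibroblasts and bone cells, averaged 12698 CPM in Control, above Col2a1. Summed levels of the 7 fibroblast and synovial markers were 18295 to 21754, 7486 to 8568 and 7709 to 8637 CPM in the same order. That sum holds the collagen genes Col1a1 and Col3a1, while Pdgfra (200, 263 and 307 CPM) and Prg4 (1173, 1554 and 1705 CPM) rose in both. Summed levels of the 6 osteoblast markers were 18.0 to 24.8, 4.11 to 4.79 and 3.51 to 5.21 CPM. Ibsp (14.7, 0.284 and 0.146 CPM) makes up most of the Control sum. Only 3 of the 6 were tested, of which 2 fell in each plasmid group, beside the same shares of all genes. Alpl (2.85, 3.02 and 3.21 CPM) was not called, and Phex was listed at 0. The 10 leukocyte markers summed to 76.9 to 89.7, 81.5 to 85.3 and 90.1 to 108 CPM, with Itgam and Cd3e listed at 0 in every library, as were all X-linked genes and some others, so that a 0 may be a gap in the counts rather than absence of the RNA, and 7 of 8 tested fell in each comparison with Control, beside the same shares of all genes, while Cd14 rose. The 5 endothelial markers summed to 3.17 to 4.82 CPM over the 12 libraries. The part of these cell types in the results below was not tested, and in bulk RNA fewer cells of a type and less RNA per cell cannot be told apart.

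Serpinh1 was by far the most abundant of the 10 transcripts in Control chondrocytes. Per kilobase of annotated exon, it stood at 955 ± 29.7 CPM (SD, n = 4), followed by P4ha1 at 216 ± 14.8. Crtap and Plod2 came next, at 129 ± 5.52 and 129 ± 7.47 CPM per kilobase, and their ranges overlapped. P4ha2 (83.3 ± 6.56) and Plod1 (78.9 ± 6.78) overlapped too, as did P4ha3 (48.9 ± 0.877) and P3h1 (48.7 ± 3.43), with Plod3 between these pairs at 61.1 ± 4.21. P3h2 was lowest, at 5.59 ± 0.446 CPM per kilobase. Serpinh1, P4ha1 and P3h2 held the first, second and last place in Control also when the longest transcript replaced the summed exons as length, while Crtap moved from the third to the fifth place. In the WT and SIRT5F101L groups Serpinh1 was still first, at 331 ± 16.1 and 282 ± 32.7 CPM per kilobase, and P3h2 last, at 15 ± 0.695 and 14.4 ± 1.36. By summed exons P4ha1 took the second and Plod2 the third place in both, with Plod2 at 122 ± 4.02 and 133 ± 9.90 CPM per kilobase and overlapping P4ha1 (150 ± 8.42) in SIRT5F101L. These places depend on the length used: by the longest transcript Plod2 was ahead of P4ha1 in both, at 180 ± 5.92 against 145 ± 3.65 and 196 ± 14.6 against 153 ± 8.57.

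Each plasmid group was first compared with the same 4 Control libraries by edgeR's quasi-likelihood test, fitted to all 12 libraries and 14253 genes. What Control cells received is not given, so effects of transfection, plasmid DNA and SIRT5 itself cannot be told apart in these comparisons. A gene was called when its p, adjusted by the Benjamini-Hochberg method over all genes, was under 0.05. In WT libraries 7 of the 10 genes were called, where the share over all genes was 56.8%. Of the 7, 6 fell (28.1% of all genes) and 1 rose (28.7%). In SIRT5F101L libraries 8 of 10 were called, against 60.7% of all genes, of which 7 fell (30.7%) and 1 rose (30.0%). Without SIRT5F101L replicate 1 the count was again 8, in a fit that called 9179 of 14528 genes. The median log2 fold change of the 10 was -0.21 in WT and -0.27 in SIRT5F101L, beside -0.01 and -0.02 over all genes. At an unadjusted p under 0.05, 8 of 10 passed in each comparison, against 61.0% and 64.1% of all genes. The libraries of WT and Control did not overlap for 7 of the 10 (53.5% of all genes), and those of SIRT5F101L and Control for 6 (51.3%), or for 7 (62.7%) without SIRT5F101L replicate 1. The shares of genes called or without overlap in either direction lie not far above those over all genes, while the share that fell was larger among the 10 than over all genes, with no test of that difference. The sizes differed widely among the 10, from -1.53 to 1.43 in WT.

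**Figure D1:**
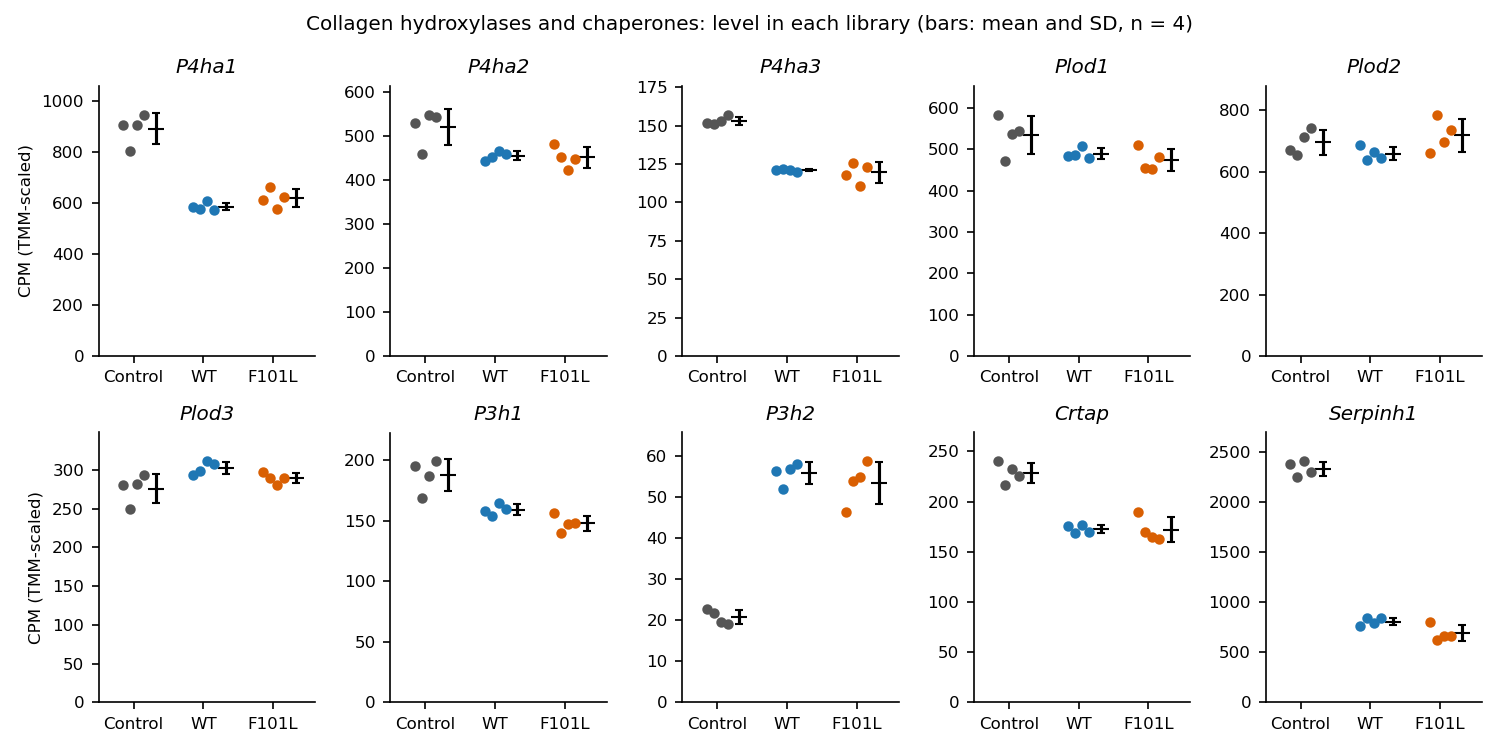
Level of each of the 10 genes in each library, in TMM-scaled CPM on an axis that starts at 0; points are libraries, and the bar beside them is the mean with its SD (n = 4). Serpinh1 drops from 2248 to 2408 CPM in Control to at most 841 CPM in the plasmid groups, P3h2 moves the other way, and the lysyl hydroxylases overlap Control or lie close to it.

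Serpinh1 changed most. Its level was 2378, 2248, 2408 and 2303 CPM in Control replicates 1 to 4, 759, 839, 794 and 841 CPM in WT, and 807, 628, 663 and 660 CPM in SIRT5F101L. All 8 plasmid libraries lay far under all 4 Control libraries. The fall was 2.89-fold in WT (log2 fold change -1.53, SE 0.07, edgeR adjusted p 3.46e-13) and 3.38-fold in SIRT5F101L (-1.76, SE 0.07, edgeR adjusted p 3.78e-14). At least a 2-fold change with a call was seen in 16.7% and 17.5% of all genes. By the root-mean-square difference of log2 CPM relative to the Control mean over the 12 libraries, the genes with the pattern most like Serpinh1 among 9767 were Mxra7 (0.10), Fxyd6 (0.11) and Rcn3 (0.11). Rcn3 had log2 fold changes of -1.66 and -1.78.

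Of the prolyl 4-hydroxylases, whose alpha subunits carry the catalytic site, P4ha1 fell most. It was at 905, 803, 906 and 944 CPM in Control, 585, 577, 605 and 571 CPM in WT, and 610, 661, 577 and 623 CPM in SIRT5F101L. No plasmid library reached the lowest Control library. The fall was 1.52-fold in WT (log2 fold change -0.61, SE 0.06, edgeR adjusted p 5.08e-08) and 1.44-fold in SIRT5F101L (-0.53, SE 0.06, edgeR adjusted p 3.52e-07).

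P4ha3, the least abundant alpha subunit here, was at 152, 151, 153 and 157 CPM in Control, 121, 122, 121 and 120 CPM in WT, and 118, 126, 111 and 123 CPM in SIRT5F101L. These groups too were fully apart from Control. It fell by 0.34 on the log2 scale in WT (SE 0.05, edgeR adjusted p 2.00e-05) and by 0.36 in SIRT5F101L (SE 0.05, edgeR adjusted p 1.04e-05). P4ha2, the second alpha subunit, had 529, 459, 547 and 543 CPM in Control, 443, 451, 466 and 458 CPM in WT, and 482, 452, 423 and 446 CPM in SIRT5F101L. Control replicate 2, at 459 CPM, lay inside the range of both plasmid groups, in SIRT5F101L only through replicate 1 at 482 CPM. The fall was small and passed the test in both, with log2 fold changes of -0.19 (edgeR adjusted p 0.0128) and -0.21 (edgeR adjusted p 0.00805). P4hb, the protein disulfide isomerase that forms the beta subunit of the enzyme, fell from 2398 ± 78.1 to 2013 ± 120 and 1904 ± 150 CPM (SD, n = 4), with log2 fold changes of -0.25 and -0.33.

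Because the 3 alpha subunits did not fall alike, the make-up of the family moved. P4ha1 held 61.6% to 62.6% of the summed P4ha level per kilobase in Control, 55.4% to 56.5% in WT and 56.4% to 58.8% in SIRT5F101L. The P4ha2 share was 23.2% to 24.6%, 28.2% to 29.3% and 26.5% to 29.4%. Neither share overlapped between Control and a plasmid group, also with the longest transcript as length. By that length P4ha1 averaged 48.5%, 42.1% and 43.7%, and P4ha2 37.4%, 43.2% and 42.1%. Which of the 2 is larger in WT therefore depends on the length used. The share of P4ha3 overlapped throughout, at 13.7% to 15.5% over all libraries. No test was made on these shares. The summed level of the family was 348 ± 21.8 CPM per kilobase in Control, 253 ± 4.52 in WT and 260 ± 12.4 in SIRT5F101L.

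**Figure D2:**
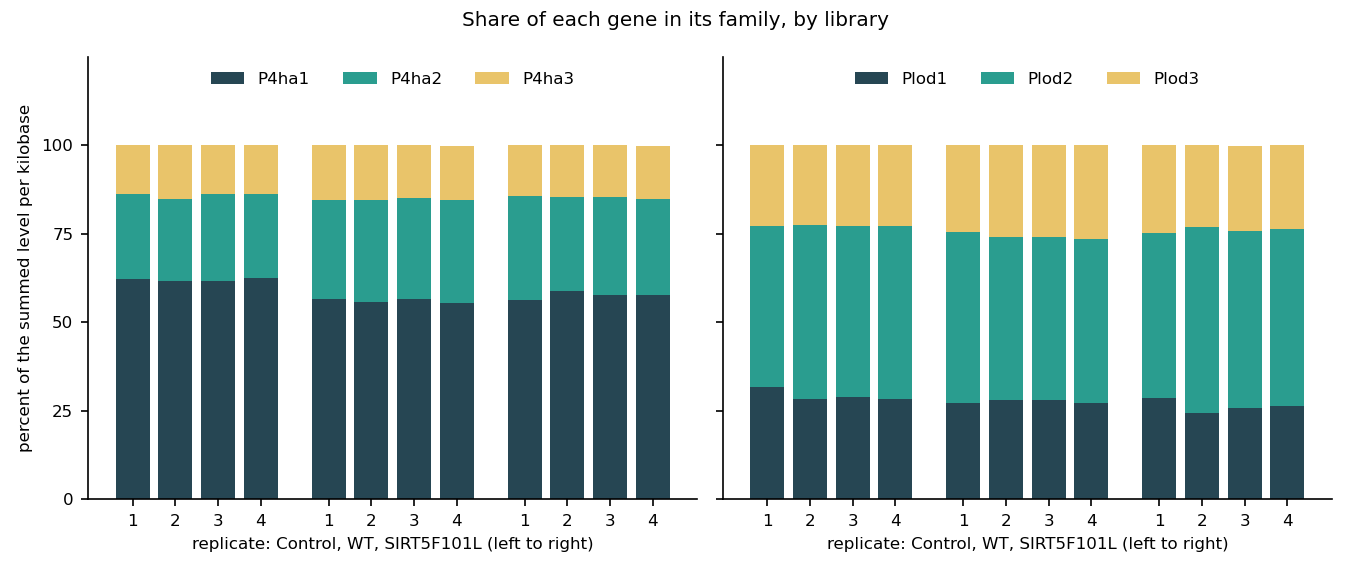
Share of each gene in the summed level per kilobase of the P4ha family (left) and of the Plod family (right), in percent, by summed exon length, with 1 bar per library. P4ha1 takes 61.6% to 62.6% of its family in Control and at most 58.8% in the plasmid groups, while Plod2 takes 45.7% to 52.6% of its family in all 12 libraries.

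The lysyl hydroxylases changed least. Plod2, which hydroxylates lysines in the collagen telopeptides, was at 672, 655, 713 and 744 CPM in Control, 687, 639, 664 and 645 CPM in WT, and 660, 785, 696 and 735 CPM in SIRT5F101L. The 3 groups overlapped. Its log2 fold change was -0.08 in WT (95% interval -0.22 to 0.06, edgeR adjusted p 0.294) and 0.05 in SIRT5F101L (-0.10 to 0.19, edgeR adjusted p 0.537). Part of the Plod2 exon sequence, 6.42%, is shared with the predicted gene Gm38391, which had 36 to 66 counts in a library.

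Plod1, which acts on helical lysines, was at 583, 472, 537 and 543 CPM in Control, 484, 485, 508 and 478 CPM in WT, and 510, 454, 451 and 480 CPM in SIRT5F101L. Control replicate 2 was again the lowest of its group, and both plasmid groups overlapped Control. The log2 fold change was -0.13 in WT (edgeR adjusted p 0.103) and -0.17 in SIRT5F101L (edgeR adjusted p 0.0280). Neither verdict was stable. Without Control replicate 2 Plod1 fell in WT too (-0.18, edgeR adjusted p 0.0158), and without Control replicate 1, 3 or 4, or SIRT5F101L replicate 2 or 3, the call in SIRT5F101L was lost (edgeR adjusted p 0.0561 to 0.114).

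Plod3, which adds the sugars as well as the hydroxyl group, was at 280, 249, 282 and 293 CPM in Control, 294, 298, 311 and 308 CPM in WT, and 297, 290, 281 and 289 CPM in SIRT5F101L. The WT libraries lay just above the highest Control library, and SIRT5F101L overlapped Control. The log2 fold change was 0.13 in WT (SE 0.06, edgeR adjusted p 0.0549) and 0.07 in SIRT5F101L (edgeR adjusted p 0.323). The first missed the threshold by little and passed it without Control replicate 4 (0.16, edgeR adjusted p 0.0331), without SIRT5F101L replicate 1 (0.13, edgeR adjusted p 0.0315), when only the 8 libraries compared were fitted (0.15, edgeR adjusted p 0.0234) and under DESeq2 (0.14, adjusted p 0.0316). Exons of Plod3 share 11.9% of their sequence with Znhit1 and Mir702, and Znhit1 averaged 35.5 CPM in Control and 28.3 and 29.4 CPM in the plasmid groups. The summed Plod level per kilobase was 269 ± 15.9, 261 ± 5.06 and 267 ± 8.29 CPM (SD, n = 4), with overlapping ranges. Within it the Plod3 share was 22.4% to 22.9% in Control, 24.6% to 26.4% in WT and 23.2% to 25% in SIRT5F101L, without overlap with Control. The Plod1 share was 28.3% to 31.6% in Control and 27.1% to 28.1% in WT, without overlap, and 24.3% to 28.6% in SIRT5F101L, where the overlap rests on replicate 1 (28.6%, the others at most 26.2%). The Plod2 share was 45.7% to 49.3% in Control, 46.1% to 48.3% in WT and, in SIRT5F101L, 46.5% in replicate 1 and 50% to 52.6% in the others.

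The prolyl 3-hydroxylases went in opposite directions. P3h1 was at 195, 169, 187 and 199 CPM in Control, 158, 154, 165 and 160 CPM in WT, and 156, 140, 147 and 148 CPM in SIRT5F101L. All plasmid libraries were under the lowest Control library, and P3h1 fell by 0.23 on the log2 scale in WT (SE 0.06, edgeR adjusted p 0.00239) and by 0.34 in SIRT5F101L (SE 0.06, edgeR adjusted p 5.70e-05). Crtap, the non-enzymatic partner of P3h1, was at 240, 217, 232 and 225 CPM in Control, 176, 169, 177 and 170 CPM in WT, and 190, 170, 165 and 163 CPM in SIRT5F101L. It too was fully apart from Control and fell, with a log2 fold change of -0.40 in WT (SE 0.06, edgeR adjusted p 8.03e-06) and -0.41 in SIRT5F101L (SE 0.06, edgeR adjusted p 5.40e-06). Ppib, the isomerase of the same complex, fell from 149 ± 0.751 to 104 ± 3.36 and 93.2 ± 13.1 CPM (SD, n = 4).

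P3h2, an enzyme best known for acting on basement membrane collagen, was the 1 gene of the 10 that rose. It was at 22.7, 21.7, 19.7 and 19.1 CPM in Control, 56.4, 52.1, 56.9 and 58.0 CPM in WT, and 46.5, 53.9, 54.8 and 58.7 CPM in SIRT5F101L. Every plasmid library was at more than the highest Control library by a wide margin. The rise was 2.69-fold in WT (log2 fold change 1.43, SE 0.08, edgeR adjusted p 7.57e-12) and 2.57-fold in SIRT5F101L (1.36, SE 0.08, edgeR adjusted p 1.48e-11). Exons of P3h2 overlap the predicted gene Gm4524 over 28.4% of their length. Gm4524 itself averaged 6.57 CPM in Control and 12.5 and 13.9 CPM in the plasmid groups, and reads from the shared part cannot be assigned without knowing how strand was handled, so the size of the P3h2 rise is uncertain. P3h3 and P3h4, the remaining members of that gene family, fell, from 288 ± 12.2 to 176 ± 9.93 and 164 ± 16.4 CPM and from 330 ± 7.23 to 214 ± 13.0 and 199 ± 24.8 CPM (SD, n = 4).

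**Figure D3:**
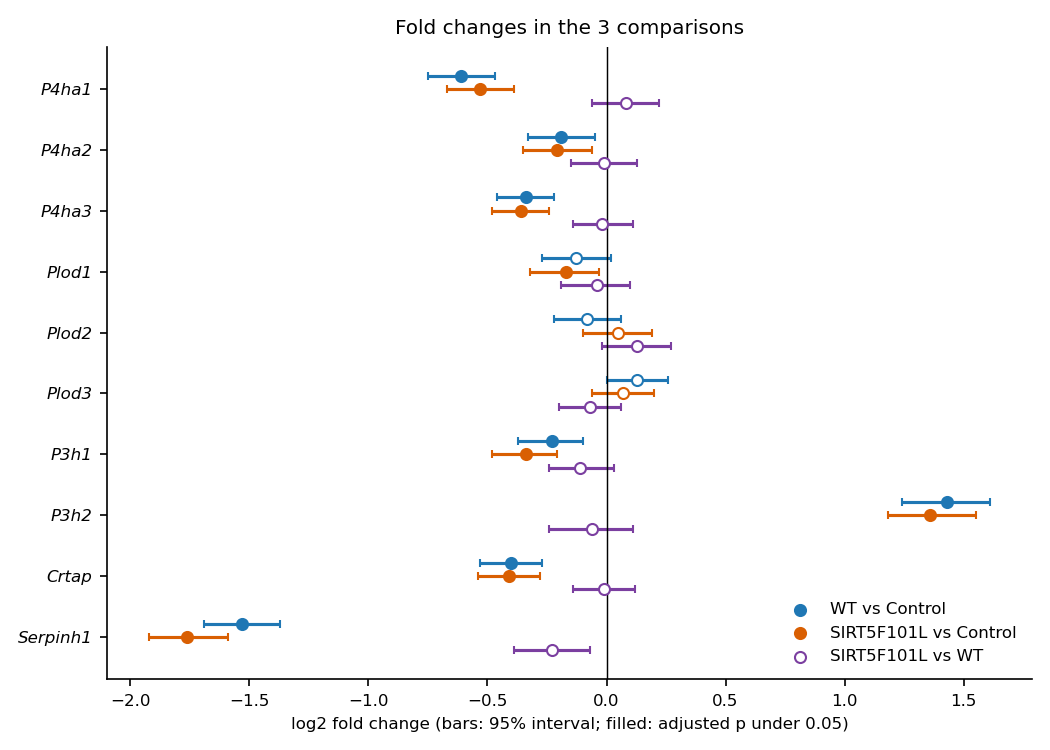
Log2 fold change of each gene in the 3 comparisons, with its 95% interval; filled points passed an adjusted p of 0.05 in edgeR and open points did not. Serpinh1 lies near -1.53 and -1.76 and P3h2 near 1.43 and 1.36, the other genes within -0.61 to 0.13, and the intervals for SIRT5F101L against WT include 0 for 9 of the 10, while that of Serpinh1 runs from -0.39 to -0.07.

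SIRT5F101L was then compared directly with WT, to see what the substitution alters. By edgeR none of the 10 genes was called (0 of 10), where 0.0421% of all genes were, 0.0281% higher, 0.0140% lower and 0.0140% with at least a 2-fold change. DESeq2 also called 0 of the 10. With all libraries the 2 groups overlapped for all 10 genes, where 4.02% of all genes did not overlap. Without SIRT5F101L replicate 1 they did not overlap for 4 of the 10, against 25.1% of all genes: Plod2 was higher in SIRT5F101L (696 to 785 against 639 to 687 CPM), and Plod3 (281 to 290 against 294 to 311), P3h1 (140 to 148 against 154 to 165) and Serpinh1 were lower. An unadjusted p under 0.05 was found for 1 of 10, against 11.9% of all genes. That gene was Serpinh1, which averaged 808 ± 39.2 CPM in WT and 690 ± 80.0 CPM in SIRT5F101L (SD, n = 4). The difference on the log2 scale was -0.23 (SE 0.07, 95% interval -0.39 to -0.07, edgeR adjusted p 0.330). SIRT5F101L replicate 1, at 807 CPM, lay inside the WT range, and the others, at 628 to 663 CPM, lay under it. Without that library Serpinh1 was lower in SIRT5F101L (-0.31, SE 0.06, edgeR adjusted p 0.000457), in a fit that called 15.2% of all genes, and its log2 fold change from Control was -1.84. With all libraries, 1 of the 14 chondrocyte markers was called between the plasmids and 13 were not, with a median of -0.36, and their part in the Serpinh1 difference was not tested. Over the alternatives tried, its edgeR or DESeq2 adjusted p ran from 0.000457 to 0.743.

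For the hydroxylases the differences between the plasmids were small. Plod2 had the largest positive value, 0.13 (95% interval -0.02 to 0.27, edgeR adjusted p 0.431), or 0.17 (edgeR adjusted p 0.0549) without SIRT5F101L replicate 1. P3h1 was at -0.11 (-0.24 to 0.03) and P4ha1 at 0.08 (-0.06 to 0.22). The intervals of P4ha2 (-0.15 to 0.13), P4ha3 (-0.14 to 0.11), Plod1 (-0.19 to 0.10), Plod3 (-0.20 to 0.06) and Crtap (-0.14 to 0.12) all lay between -0.20 and 0.13 on the log2 scale, so that larger differences fall outside them. The interval of P3h2 ran from -0.24 to 0.11.

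The enzymes were next set against their substrate. The summed level of the 11 fibrillar collagen chains was 42337 to 51780 CPM in Control, 16322 to 18120 in WT and 15303 to 17274 in SIRT5F101L. For every 1000 fibrillar collagen counts there were 47.9 ± 3.64 counts of Serpinh1 in Control, 47.3 ± 3.85 in WT and 42.7 ± 4.93 in SIRT5F101L (SD, n = 4), with ranges of 44.9 to 53.1, 43.8 to 51.5 and 38.2 to 49.7 that overlapped. The overlap of SIRT5F101L with Control rests on SIRT5F101L replicate 1, at 49.7. The other 3 libraries, at 38.2 to 41.9 (mean 40.4 ± 1.93, SD, n = 3), lay under all Control and WT libraries, where 1.92% and 4.43% of all genes did so. The 9 other genes all had more counts per 1000 collagen counts in each plasmid library than in any Control library, which was also so for 87.6% of all genes in WT and 87.8% in SIRT5F101L. For P4ha1 the ratio was 18.2 ± 0.640 in Control, 34.2 ± 0.652 in WT and 38.3 ± 3.31 in SIRT5F101L, the smallest change of the 9 at 1.88 and 2.10 times the Control mean. Plod2 went from 14.3 ± 1.03 to 38.5 ± 1.56 and 44.6 ± 4.64, or 2.70 and 3.13 times the Control mean, and Plod3 reached 3.14 and 3.18 times. P3h2 reached 7.63 and 7.73 times, from 0.428 ± 0.0625 to 3.27 ± 0.209 and 3.31 ± 0.302. With Col2a1 left out of the sum, the Serpinh1 ratio was 55.5 ± 4.09, 52.4 ± 4.49 and 46.5 ± 5.43, with overlap in SIRT5F101L again through replicate 1 alone (54.3, the others 41.6 to 45.5, Control 52.1 or more). That of the other 9 still did not overlap Control. The denominator itself was 0.349 and 0.33 times its Control mean and enters every ratio, and no test was made on the ratios.

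**Figure D4:**
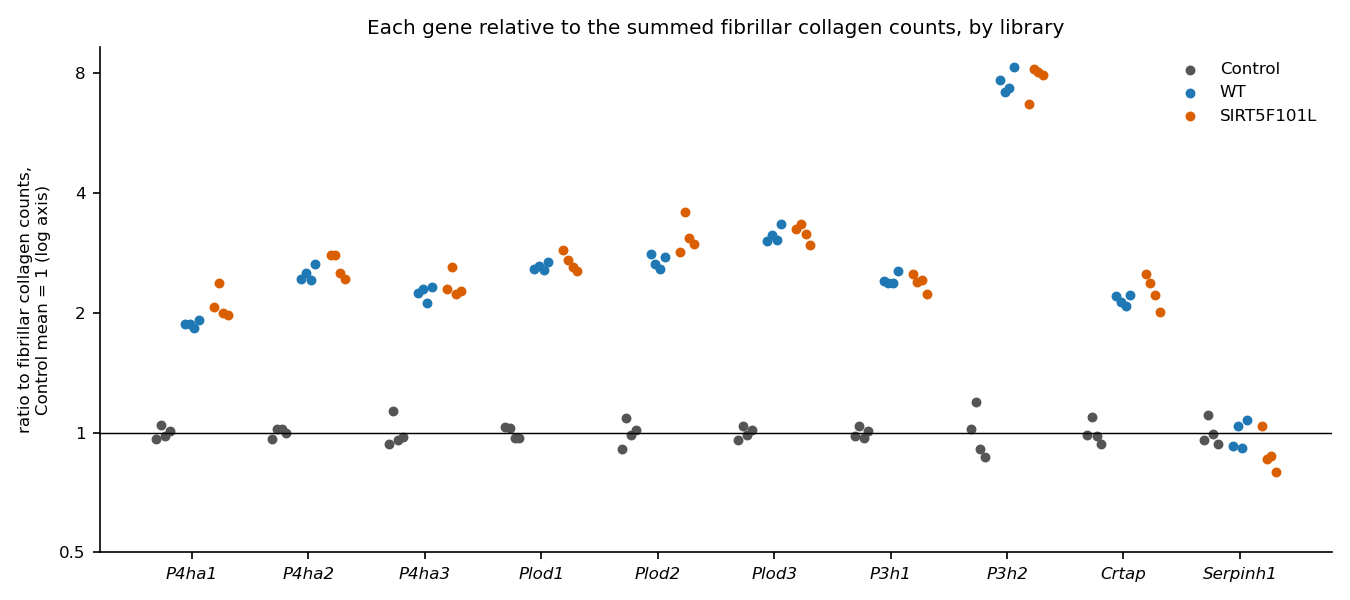
Ratio of each gene's counts to the summed counts of 11 fibrillar collagen chains, divided by its Control mean, on a log axis; each point is a library. Serpinh1 averages 0.988 in WT and 0.892 in SIRT5F101L, where replicate 1 is the highest point, the hydroxylases and Crtap lie near 2 to 3, and P3h2 lies above 6.

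The substrates themselves were counted as a list. In WT, 28.1% of all genes fell and 28.7% rose, and in SIRT5F101L 30.7% and 30.0%; these shares stand beside each list, and no test compared a list with the other genes. Of 24 tested collagen chains, 17 fell and 4 rose in WT, and 16 fell and 4 rose in SIRT5F101L, with median log2 fold changes of -1.28 and -1.40. Col2a1, the main cartilage collagen, had log2 fold changes of -2.01 and -2.36, and Col1a1 and Col1a2, the chains of type I collagen, had -1.78 and -1.90, and -1.90 and -1.99. Col8a2 (-6.14 and -6.30) and Col9a1 (-3.25 and -3.80) were at the low end, Col5a3 (0.62 and 0.73) and Col6a3 (0.35 and 0.24) at the high end. Col10a1 was listed at 0 in all libraries. Between the plasmid groups 1 of 24 chains was called, Col11a2, a minor chain of cartilage fibrils named here after its values were seen (-0.63, edgeR adjusted p 0.0339), where 0.0421% of all genes were called.

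Of 13 other factors of collagen folding, 10 fell and 2 rose in each plasmid group, where 28.1% of all genes fell in WT and 30.7% in SIRT5F101L, with medians of -0.63 and -0.72, and none was called between the plasmids (0 of 13, with 1 at an unadjusted p under 0.05, beside 11.9% of all genes). Fkbp7, an ER prolyl isomerase (-1.58 and -1.55), and Sparc, a collagen-binding matrix protein (-1.41 and -1.48), fell most. Fkbp10, the isomerase FKBP65 that works with HSP47 and Plod2, fell from 186 ± 19.7 to 155 ± 9.18 and 134 ± 9.72 CPM (SD, n = 4). Creb3l1, a transcription factor of secretory and collagen genes, had log2 fold changes of -1.24 and -1.28. Tmem38b, an ER cation channel, rose (1.32 and 1.36), as did Colgalt2 (1.0 and 1.04), a collagen galactosyltransferase at 1.47 CPM in Control. Its abundant relative Colgalt1 was at 224 ± 19.9, 208 ± 5.51 and 208 ± 5.72 CPM and was not called.

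For export of procollagen from the ER, 3 of 11 tested genes fell and 1 rose in WT, and 4 fell and 3 rose in SIRT5F101L, with medians of -0.05 and -0.10. The counts that fell lie near the 28.1% and 30.7% over all genes. The COPII coat genes Sec31a (-0.23 and -0.23) and Sec13 (-0.21 and -0.32) fell, and the transcription factor Creb3l2 rose (0.54 and 0.59). Of 7 tested genes for cleaving the propeptides, 5 fell and 1 rose in each group (28.1% and 30.7% of all genes fell), with medians of -0.59 and -0.73. Adamts2 (-1.60 and -1.53) and Adamts14 (-1.28 and -1.55), which remove N-propeptides, fell, and Tll1, a C-propeptide protease of the Bmp1 family, rose (2.30 and 2.26).

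**Figure D5:**
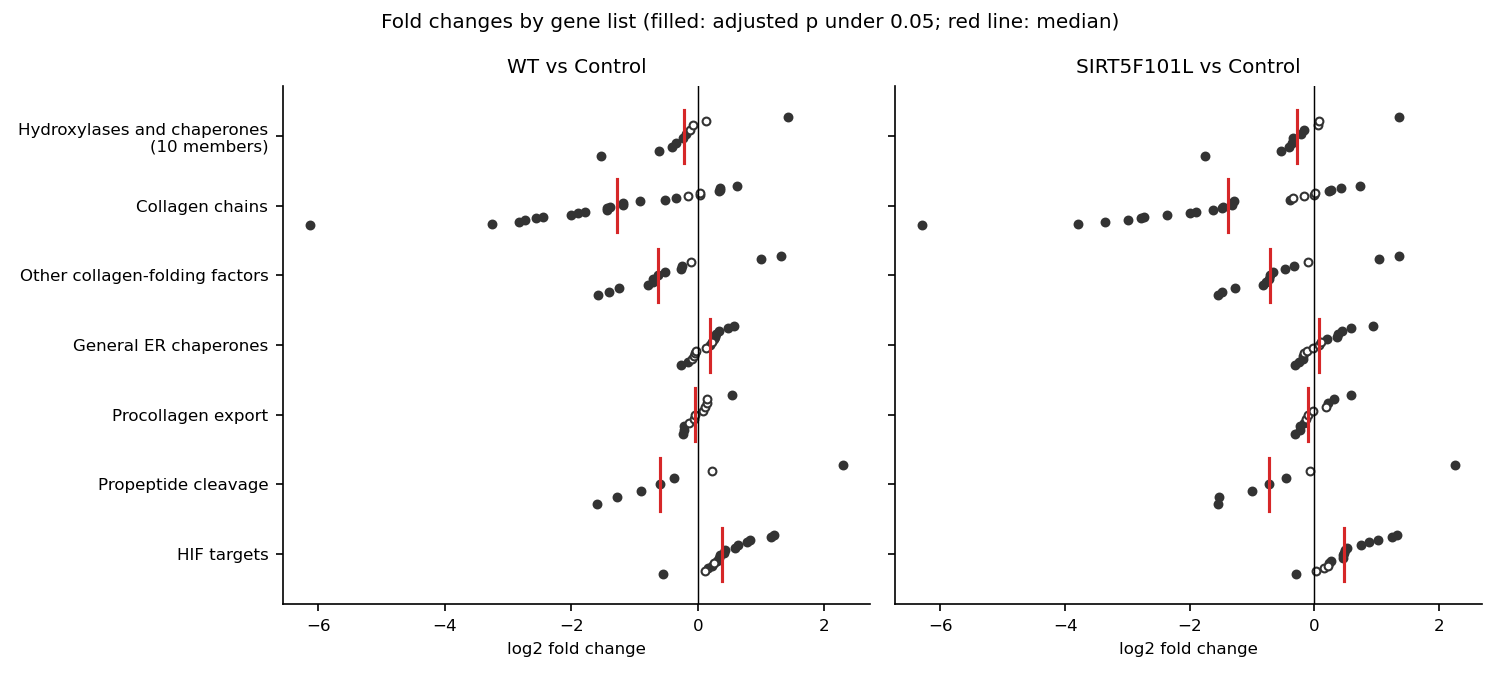
Log2 fold changes of the 10 genes and of 6 gene lists, in WT (left) and SIRT5F101L (right) against the same Control libraries; each point is a gene, filled where the edgeR adjusted p was under 0.05, and the red line is the list's median. Collagen chains reach -6.14 and -6.30, with medians of -1.28 and -1.40, while the medians of the HIF targets, at 0.39 and 0.47, lie above 0.

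Genes that set the supply of cofactors, and other enzymes of the same oxygenase class, formed a list of 12. Of these, 7 rose and 1 fell in each plasmid group, where 28.7% of all genes rose in WT and 30.0% in SIRT5F101L, with medians of 0.69 and 0.71. Slc23a2, the ascorbate transporter SVCT2, rose from 54.5 ± 2.76 to 304 ± 21.8 and 325 ± 35.9 CPM (SD, n = 4), with log2 fold changes of 2.48 and 2.57. Slc39a14, a zinc and iron importer, rose as well (1.85 and 1.92), and Slc40a1, the iron exporter ferroportin, fell (-2.53 and -2.22). Of 16 tested HIF targets outside collagen modification, 13 rose and 1 fell in WT, and 12 rose and 1 fell in SIRT5F101L, beside the same 28.7% and 30.0% of all genes that rose. The transcription factor gene Bhlhe40 (1.2 and 1.33) and the glucose transporter gene Slc2a1 (1.16 and 1.24) rose most, and Ndrg1 fell (-0.55 and -0.29). Adm and Pgk1 were listed at 0, and Egln3 is counted in this list and in the list of 12. P4ha1 and P4ha2, whose promoters are printed above, fell in the same libraries. Plod1 was called, as a fall, in SIRT5F101L alone, a call that was not stable, and Plod2 was not called. HIF activity was not measured, and its part in any of these changes was not tested.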

How the data were processed

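Per the labels' protocols, mRNA from primary mouse chondrocytes was captured on oligo-dT beads, made into libraries with the NEBNext Ultra kit and sequenced as paired-end reads. The authors deposited 1 file per library, which holds raw counts of reads for each Ensembl gene ID without scaling. The submitters' processing notes name FastQC 0.11.9, HISAT2 2.2.1, HTSeq 2.0.2 and DESeq2 1.38.3 and the build GRCm39 (mm39). The annotation release and the strand setting are not given in the sources used here, so genes with overlapping exons are uncertain.

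Symbols came from a supplied table that named 52029 of the 57010 IDs. The 2414 X-linked IDs, and those on the Y chromosome and the mitochondrial genome, held no counts. The fit was made with edgeR 4.0.16 under R 4.3.3 on genes kept by filterByExpr, with TMM factors and 1 mean per group (9 residual degrees of freedom). Standard errors are the log2 fold change over the square root of F, and 95% intervals use the t distribution with 9 degrees of freedom. CPM values are TMM-scaled. Exon lengths and overlaps came from GENCODE M21 (bedtools 2.31.1, BLAST 2.17.0), which is built on GRCm38, as are the promoters. The same fit was tested on simulated data in which 200 genes differed by known amounts, with 1 common dispersion. Far fewer genes differed there than were called against Control, so it does not measure error rates under such broad change.

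The genes, lists and alternatives were chosen with earlier results of these data known. Named are all 10 genes, 9 fixed pathway genes, the 2 highest and 2 lowest called members of each list in WT, and the 3 closest patterns for genes called at 2-fold or more in both comparisons (for P3h2 they are not reported here); Creb3l1, Col11a2 and the single cell type markers were named after their values were seen. The labels give no replicate numbers that pair libraries and no batch. Alternatives were RLE and upper-quartile scaling, other filters, a robust prior, DESeq2 1.42.0, fits of 8 libraries, a transcript-length trend as offset, and leaving out each library in turn.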

Additional observations from a re-analysis of the deposited data

Results flagged for a closer look

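The 10 genes were screened in each of the 3 groups for a library far from the other members of its group, by the ratio of the gap to the range (Dixon's 95% limit). Of 30 such checks 0 passed, where chance gives about 1.5.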

How the results depend on the processing

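Over 20 alternatives, including refits without a library of the group not compared, the 10 genes gave 200 results per comparison. No called value changed its direction. The side of the threshold was kept in 193 of the 200 for WT against Control and 194 for SIRT5F101L against Control. Between the plasmids it was kept in 198. The exceptions were Plod1 and Plod3 against Control and Serpinh1 between the plasmids. Serpinh1 against Control ran from -1.58 to -1.47 in WT and from -1.84 to -1.66 in SIRT5F101L, and P3h2 in SIRT5F101L from 1.32 to 1.43. Plod1 in WT also passed with upper-quartile scaling (-0.18, edgeR adjusted p 0.0221) and with the length trend as offset (-0.21, edgeR adjusted p 0.0111), and in SIRT5F101L it missed in the fit of 8 libraries (-0.15, edgeR adjusted p 0.0799). Between the plasmids, 1 of the 10 genes, Serpinh1, was called without a filter on low counts (-0.23, edgeR adjusted p 0.0358), and 0 to 1 when a library was left out. The count over all genes in that comparison was 6, and became 354 without a filter, 2 with a robust prior, 2 in the fit of 8 libraries, 15 with the length trend as offset, 38 under DESeq2 and 0 to 2213 when a library was left out, with 2213 without SIRT5F101L replicate 1. The cause was not tested. The counts of the 10 genes without overlap when SIRT5F101L replicate 1 was left out were added after seeing the data. No paired analysis was possible because the labels give no shared replicate numbers. Levels per kilobase depend on the annotation: for Plod1 in Control 78.9 CPM per kilobase became 130 with the longest transcript. Each count of the 10 genes rests on 350 or more reads, and the part of depth in the spread between libraries was not estimated. Intervals cover these 12 libraries only.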

Other observations

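General ER chaperones and disulfide enzymes fold secreted proteins of every kind. Of 15 tested, 7 rose and 2 fell in WT, where 28.7% of all genes rose and 28.1% fell. In SIRT5F101L 6 rose and 4 fell, beside 30.0% and 30.7% of all genes, and the medians were 0.19 and 0.07. No test compared this list with the collagen-specific factors. The ER chaperone Hyou1 rose from 224 ± 21 to 313 ± 7.89 and 288 ± 5.91 CPM (SD, n = 4), and Ero1b, an ER oxidase at 3.79 ± 0.595 CPM in Control, had log2 fold changes of 0.58 and 0.94. Pdia4 (-0.26 and -0.31) and Pdia3 (-0.16 and -0.18), both disulfide isomerases, fell. None of the 15 was called between the plasmid groups by edgeR (0.0421% of all genes were), and 6 had an unadjusted p under 0.05, where 11.9% of all genes did.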
